A study of Mus musculus with 12 samples.

Results

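Transcripts of 6 STAT transcription factors (Stat2, Stat3, Stat4, Stat5a, Stat5b and Stat6) and of 3 Janus kinases (Jak1, Jak2 and Tyk2) were followed in bone marrow-derived dendritic cells (BMDCs). The 9 genes were chosen by symbol from the 41709 genes counted in each library. The rule used no measured value, although the members were picked with earlier results of these data known. All 9 passed the filter on low counts in every comparison. BMDCs were grown from bone marrow for 10 days in GM-CSF, and MHCII+ cells were isolated with magnetic beads for poly(A) RNA-seq. The 4 groups, with 3 libraries each, were CD18 fl/fl BMDCs without Cre, untreated or given 100 ng/mL LPS for 24 h, and CD18 CD11c cKO BMDCs, which carry the same homozygous floxed allele together with Cre, untreated or given LPS in the same way. CD18, encoded by Itgb2, is the shared β chain of the β2 integrins, and the floxed part is exon 3. Cre is driven by the CD11c promoter, which the study used to restrict Cre to dendritic cells. In which cells of these cultures recombination occurred was not measured here. The age of the mice is not given in the sources used here, nor is it stated whether the 3 libraries of a group came from separate mice or cultures. All p-values therefore measure the spread between these libraries, which may be technical.

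JAK kinases are bound to the cytoplasmic tails of cytokine receptors and are activated when a ligand brings receptor chains together. They phosphorylate the receptor and the STAT proteins that dock on it, and the STATs then form dimers, enter the nucleus and bind interferon-γ activated sites (GAS) or, when Stat2 is joined to Irf9 in the complex ISGF3, interferon-stimulated response elements (ISRE). In dendritic cells, GM-CSF signals through Jak2 and Stat5, type I interferon through Tyk2, Jak1 and Stat2, IL-6 and IL-10 through Stat3, IL-12 through Stat4, and IL-4 through Stat6, while LPS itself is sensed by TLR4 and reaches STATs through the cytokines that it induces.

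The members lay on 6 autosomes in GRCm39, the build whose gene positions the tables matched. Stat5b (chr11:100671557-100741550, minus strand), Stat5a (chr11:100750177-100775995, plus strand) and Stat3 (chr11:100775924-100830366, minus strand) are neighbours. Between Stat5b and Stat5a lay 8626 bases, whereas Stat5a and Stat3 overlapped by 72 bases at their 3′ ends. The other genes were Stat4 (chr1:52026307-52146348, plus strand), Stat6 (chr10:127478855-127496826, plus strand), Stat2 (chr10:128106428-128128718, plus strand), Jak1 (chr4:101009564-101122479, minus strand), Jak2 (chr19:29229228-29290480, plus strand) and Tyk2 (chr9:21015364-21042539, minus strand).

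Promoters of all 9 genes were found in the RefSeq table (300 bases, of which 250 lie before the start, taken from GRCm38.p6), as 12 starts, and each matched GRCm39 at 1 place. GAS (TTCNNNGAA) and ISRE (GAAA and again GAAA with any 2 bases in between) were searched on both strands. An ISRE was found for Stat2, with its first base 222 bases before the start, and at an inner start of Stat4 that lies 21092 bases inside the gene, with its first base 97 bases before that start. The 250 bases before both starts are shown because these were the only promoters of members with a match, with the match in capitals (on the minus strand in Stat2, hence read in reverse complement).
Stat2, chr10:128106117-128106366, plus strand: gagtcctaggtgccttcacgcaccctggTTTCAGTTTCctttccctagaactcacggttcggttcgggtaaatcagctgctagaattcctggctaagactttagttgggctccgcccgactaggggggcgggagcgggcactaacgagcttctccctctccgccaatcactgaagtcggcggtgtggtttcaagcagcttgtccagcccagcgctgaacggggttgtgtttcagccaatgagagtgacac
Stat4 inner start, chr1:52047149-52047398, plus strand: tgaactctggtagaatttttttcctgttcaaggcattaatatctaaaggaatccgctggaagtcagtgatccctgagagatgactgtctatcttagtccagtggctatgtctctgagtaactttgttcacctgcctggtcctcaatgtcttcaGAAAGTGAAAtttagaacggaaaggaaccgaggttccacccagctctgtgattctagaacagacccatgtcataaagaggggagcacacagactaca
Of all 32851 promoters in the table, 3.44% held an ISRE and 8.3% held a GAS. None of the 12 starts of the members held a GAS in this window. Whether any of these letters is bound by a factor in BMDCs was not measured.

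Total gene reads ranged from 29689149 to 34037178 per library, and 3 reads, the limit that a count of 0 allows, corresponded to between 0.0752 and 0.135 CPM (gene reads scaled to a common library size after TMM normalisation). Itgb2 was lower in CD18 CD11c cKO than in CD18 fl/fl libraries in 3 of 3 same-numbered pairs in each state, with 157.7 ± 34.8 against 393.5 ± 23.0 CPM without LPS and 107.5 ± 15.6 against 201.5 ± 56.2 CPM with LPS (SD, n = 3). These are reads over the whole gene, not over the deleted exon. The 4 libraries numbered 3 stood apart from the others. The summed level of 6 B cell markers was between 1.82 and 3.58 CPM in them and between 27.3 and 421 CPM in the other 8, and that of 6 mast cell and basophil markers was between 38.3 and 164 CPM in them and between 8.18 and 15.0 CPM in the others. Libraries with the same number deviated together from their group means, so fits with the replicate number as a block are given wherever they changed a call. The block is an alternative to the fit without it, and both are shown. Markers of dendritic cells, including MHCII genes, summed to between 16100 and 45800 CPM in all 12 libraries. Replicate 3 had the lowest sum of each group. It was at 16200 CPM without and 16100 CPM with LPS in CD18 fl/fl, and at 21400 and 21800 CPM in CD18 CD11c cKO BMDCs. Replicates 1 and 2 were between 25100 and 45800 CPM. In such bulk samples, fewer cells of a type and less RNA per cell cannot be told apart.

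By group means, Jak2 had the highest level per length of transcript among the members in every group, and Stat4 the next highest, although the place of Stat4 differed between libraries. In untreated CD18 fl/fl BMDCs, Jak2 reached 66.95 and Stat4 41.64 CPM per kb of exon, followed by Stat6 (29.96), Jak1 (22.07), Stat3 (16.75), Tyk2 (9.08), Stat5a (7.69), Stat5b (7.59) and Stat2 (5.71), as means of 3 libraries on this scale. No neighbours in that order were separated beyond the range of their libraries. In untreated CD18 CD11c cKO BMDCs, Jak2 (60.79 CPM per kb) lay above Stat4 (28.85) without overlap, and Stat6 (19.11) above Jak1 (13.99), while the other neighbours overlapped. After LPS, Stat2 had moved from the last place to the third in both genotypes, at 44.20 CPM per kb in CD18 fl/fl and 44.95 in CD18 CD11c cKO BMDCs, and Tyk2 was then last at 6.18 and 6.17. The ranges of Jak2, Stat4, Stat2 and Stat5a overlapped from each to the next in that order with LPS, and Tyk2 lay below its neighbour without overlap. In replicates 1 and 2 with LPS, Stat4 was above Jak2 (138.6 against 98.56 and 120.2 against 76.8 CPM per kb in CD18 fl/fl, 97.48 against 89.01 and 85.39 against 71.72 in CD18 CD11c cKO BMDCs). In replicate 3 with LPS, Stat4 was at 18.93 and 25.5 CPM per kb, below Jak2, Stat5a and Stat2. Levels per length put Jak2 at percentiles between 91.7 and 94.2 among 12823 genes, and Stat2 at percentiles of 59.9 and 59.1 without LPS and of 88.8 and 88.2 with it.

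**Figure D1:**
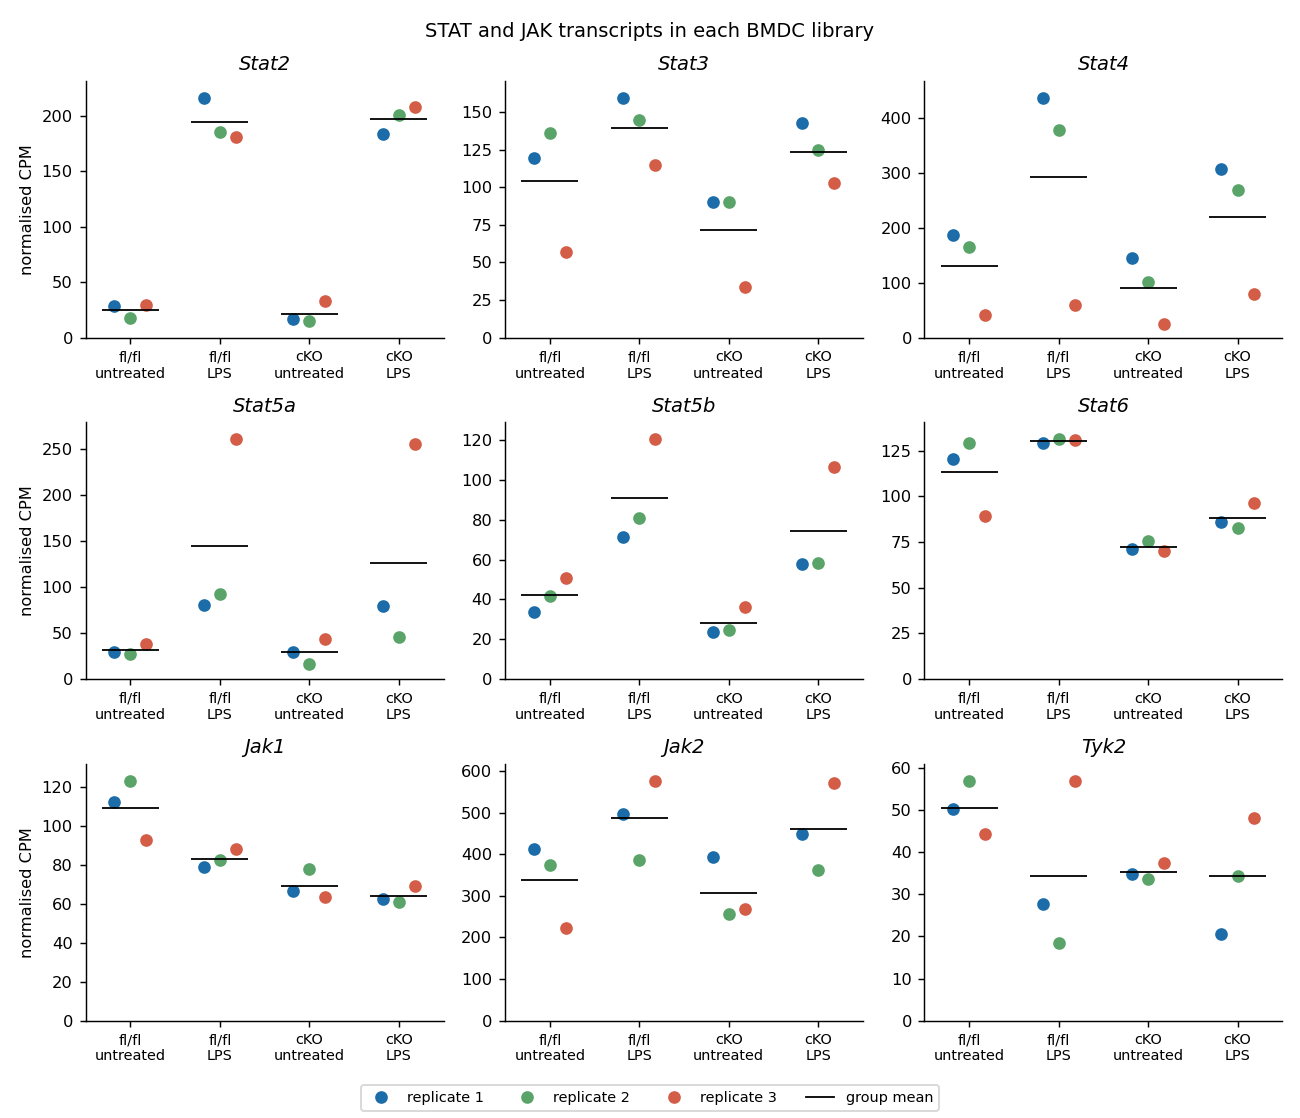
Normalised CPM (linear axis from 0, a separate scale for each gene) of the 9 members in each of the 12 libraries, by group and replicate number, with a line at the mean of each group. With LPS, all 6 Stat2 libraries lay between 180.7 and 216.4 CPM against 15.3 to 32.9 CPM without it, whereas replicate 3 was the lowest Stat4 library and the highest Stat5a library of each group.

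With LPS, Stat2 rose in both genotypes, and it was the only member called without the block. In CD18 fl/fl BMDCs, Stat2, the interferon partner of Irf9, was at 28.5, 17.6 and 29.1 CPM in replicates 1, 2 and 3 without LPS, and at 216.4, 186.0 and 180.7 CPM with LPS. In CD18 CD11c cKO BMDCs, it was at 16.9, 15.3 and 32.9 CPM without and at 183.4, 201.0 and 208.5 CPM with LPS. The 6 libraries with LPS were all above the 6 without, and LPS-treated groups of both genotypes overlapped. The log2 fold change was 2.96 ± 0.29 in CD18 fl/fl (SE, edgeR's quasi-likelihood test, Benjamini-Hochberg adjusted p = 0.0127) and 3.14 ± 0.37 in CD18 CD11c cKO BMDCs (adjusted p = 0.0131). This is 1 member higher and 0 lower of 9 in each genotype, where 2.06% of all 12744 genes tested were called higher and 1.83% lower in CD18 fl/fl, and 2.23% and 1.76% of 12687 genes in CD18 CD11c cKO BMDCs. The call was lost when replicate 1 or replicate 2 of either state was left out (adjusted p up to 0.098 in CD18 fl/fl and 0.0788 in CD18 CD11c cKO BMDCs), while the fold change stayed between 2.76 and 3.58.

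With the replicate block, Stat2, Stat5a, Stat5b and Stat4 were called higher with LPS in both genotypes and no member was called lower. The background with the block was 6.33% of genes higher and 6.43% lower in CD18 fl/fl, and 10.2% and 9.93% in CD18 CD11c cKO BMDCs. DESeq2 without a block called 3 members higher in each genotype, Stat2, Stat5a and Stat5b. Of all genes with an adjusted p, DESeq2 called 969 of 13986 higher in CD18 fl/fl and 778 of 14201 in CD18 CD11c cKO BMDCs.

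Stat5a, which relays GM-CSF signals, was at 29.0, 27.2 and 38.5 CPM in untreated CD18 fl/fl BMDCs (replicates 1, 2 and 3) and at 80.3, 92.8 and 260.5 CPM with LPS. In CD18 CD11c cKO BMDCs, the values were 29.6, 15.97 and 43.1 CPM without and 79.0, 45.3 and 255.5 CPM with LPS. The groups did not overlap in either genotype, and replicate 3 of the LPS groups was 3.02-fold and 4.27-fold above the mean of replicates 1 and 2. Without the block, the log2 fold change was 2.20 ± 0.50 (edgeR adjusted p = 0.0607) and 2.09 ± 0.70 (adjusted p = 0.144) in CD18 fl/fl and CD18 CD11c cKO BMDCs, and with the block 2.00 ± 0.32 (adjusted p = 0.0156) and 1.78 ± 0.28 (adjusted p = 0.00748). On replicates 1 and 2 only, an alternative chosen after seeing the data, it was 1.62 (adjusted p = 1.487e-05) and 1.35 (adjusted p = 0.063, edgeR), the latter no longer past the threshold. Of all genes, 3000 of 12924 were called higher on these replicates in CD18 fl/fl and 1021 of 12872 in CD18 CD11c cKO BMDCs.

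Stat5b, the close relative of Stat5a, was at 33.9, 41.6 and 50.6 CPM without and at 71.4, 80.7 and 120.4 CPM with LPS in CD18 fl/fl BMDCs. In CD18 CD11c cKO BMDCs, it was at 23.7, 24.6 and 36.2 CPM without and at 57.6, 58.1 and 106.7 CPM with LPS. Here, too, the groups did not overlap and replicate 3 was the highest library of each group. The log2 fold change was 1.12 ± 0.29 (edgeR adjusted p = 0.0833) and 1.36 ± 0.36 (adjusted p = 0.0833) without the block, and 1.10 ± 0.21 (adjusted p = 0.0258) and 1.31 ± 0.18 (adjusted p = 0.00517) with it. It was called in both genotypes on replicates 1 and 2 only, beside the counts over all genes given above for these replicates.

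Stat4, the factor downstream of IL-12, had the widest spread within groups, a median SD of 1.258 on the log2 scale against 0.478 for all genes tested. In CD18 fl/fl BMDCs, it was at 186.3, 165.2 and 41.8 CPM without and at 436.2, 378.4 and 59.6 CPM with LPS, and in CD18 CD11c cKO BMDCs at 144.7, 102.1 and 25.6 CPM without and at 306.9, 268.8 and 80.3 CPM with LPS. Every pair of the same number was higher with LPS (6 of 6), but the groups overlapped, since replicate 3 was between 3.58-fold and 6.81-fold below the mean of replicates 1 and 2 in all 4 groups. Without the block, the log2 fold change was 1.15 ± 0.80 (edgeR adjusted p = 0.417) in CD18 fl/fl and 1.20 ± 0.67 (adjusted p = 0.357) in CD18 CD11c cKO BMDCs, and with the block 0.99 ± 0.24 (adjusted p = 0.0493) and 1.33 ± 0.20 (adjusted p = 0.00581). On replicates 1 and 2 only, the values were 1.21 and 1.12, both past the threshold, beside the same counts over all genes as for Stat5a. Low Stat4 in replicate 3 moved with low B cell markers, high mast cell and basophil markers and lower summed dendritic cell markers in these libraries (above). The part of these cell types in the level of Stat4 was not tested.

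Stat3, activated by IL-6 and IL-10, was at 119.7, 136.3 and 56.9 CPM without and at 159.4, 145.0 and 114.5 CPM with LPS in CD18 fl/fl BMDCs, and at 90.5, 89.9 and 34.0 CPM without and at 142.9, 124.6 and 102.8 CPM with LPS in CD18 CD11c cKO BMDCs. All 6 pairs were higher with LPS, by 0.42 ± 0.36 (adjusted p = 0.514) and 0.74 ± 0.39 on the log2 scale (adjusted p = 0.328, edgeR), neither past the threshold with or without the block. Stat6, the IL-4 factor, was at 120.6, 129.4 and 89.4 CPM without and at 129.2, 131.2 and 130.9 CPM with LPS in CD18 fl/fl BMDCs. Its spread within groups was the smallest of the members (median SD 0.085 on the log2 scale), and its log2 fold change with LPS was 0.21 ± 0.24 (adjusted p = 0.628) in CD18 fl/fl and 0.25 ± 0.22 (adjusted p = 0.572) in CD18 CD11c cKO BMDCs. Scaled to library size alone, the value in CD18 fl/fl BMDCs was -0.10.

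None of the kinases was called with LPS, with or without the block. Jak2, the kinase of the GM-CSF and IL-12 receptors, was at 413.4, 375.0 and 221.8 CPM without and at 495.8, 386.3 and 576.5 CPM with LPS in CD18 fl/fl BMDCs, and at 393.3, 256.9 and 267.2 CPM without and at 447.7, 360.8 and 572.1 CPM with LPS in CD18 CD11c cKO BMDCs. Higher values were found in 6 of 6 pairs, most of all in replicate 3, with log2 fold changes of 0.53 ± 0.32 (adjusted p = 0.357) and 0.56 ± 0.30 (adjusted p = 0.336, edgeR). Jak1, which serves interferon, IL-6 and common γ chain receptors, was at 112.4, 123.5 and 92.9 CPM without and at 78.9, 82.7 and 88.4 CPM with LPS in CD18 fl/fl BMDCs, groups that did not overlap. The log2 fold change was -0.39 ± 0.22 (adjusted p = 0.333) there and -0.16 ± 0.22 (adjusted p = 0.739) in CD18 CD11c cKO BMDCs.

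Tyk2, the kinase of interferon-α/β and IL-12 receptors, was at 50.3, 57.0 and 44.2 CPM without and at 27.8, 18.5 and 56.8 CPM with LPS in CD18 fl/fl BMDCs. Replicates 1 and 2 were lower with LPS and replicate 3 was higher. In CD18 CD11c cKO BMDCs, Tyk2 was at 34.7, 33.7 and 37.5 CPM without and at 20.5, 34.3 and 48.2 CPM with LPS. Its log2 fold change was -0.55 ± 0.42 (adjusted p = 0.458) in CD18 fl/fl and -0.07 ± 0.35 (adjusted p = 0.932) in CD18 CD11c cKO BMDCs. On replicates 1 and 2 only, Tyk2 (-1.21, adjusted p = 0.000574) and Jak1 (-0.55, adjusted p = 0.0132, edgeR) fell with LPS in CD18 fl/fl BMDCs. In that fit, 3140 of 12924 genes were called lower and 3000 higher, so 2 of 9 members lower is near the share over all genes. The values of Tyk2 and Jak1 in CD18 CD11c cKO BMDCs were -0.43 and -0.33, negative as well but not past the threshold. No member was called for the interaction on these replicates.

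**Figure D2:**
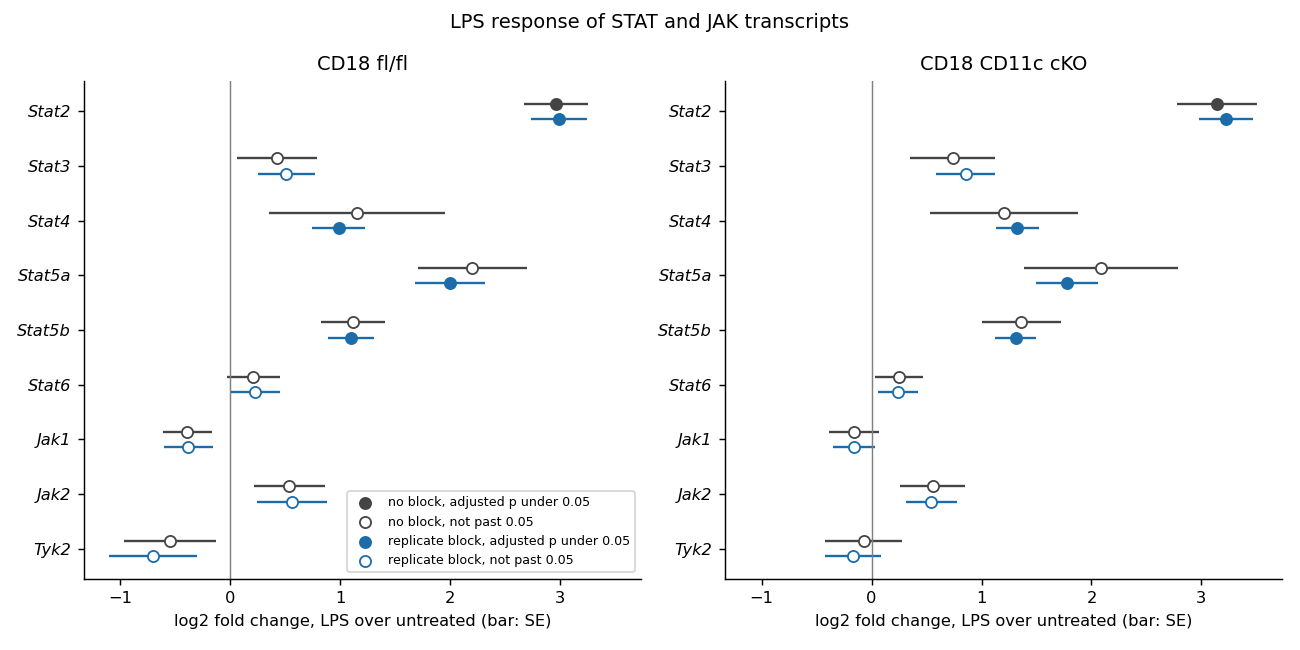
Log2 fold change of each member with LPS (bars, SE) in CD18 fl/fl (left) and CD18 CD11c cKO BMDCs (right), without and with the replicate block, with filled points for adjusted p under 0.05. Stat2 is filled in all 4 fits, near 3 on the log2 scale, and Stat4, Stat5a and Stat5b are filled with the block alone.

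Genes around the members were counted from lists of pathway genes. Over all genes, 2.06% were called higher and 1.83% lower with LPS in CD18 fl/fl BMDCs, and 2.23% and 1.76% in CD18 CD11c cKO BMDCs. With the block, the shares were 6.33% and 6.43%, and 10.2% and 9.93%. These shares apply to each list with LPS, and several of the counts are near them. An unadjusted p under 0.05 was found without the block for 3034 of 12744 and 2685 of 12687 genes (edgeR). Of 23 genes that ISGF3 induces in response to interferon, 15 were called higher with LPS in CD18 fl/fl and 17 in CD18 CD11c cKO BMDCs, and none lower. The median log2 fold change over the 23 genes was 4.21 and 3.59 (over all genes tested, -0.015 and -0.014). With the block, 19 and 20 of 23 were called higher. Rsad2, the antiviral enzyme viperin, rose from 15.3 ± 8.74 to 1146 ± 292.5 CPM in CD18 fl/fl BMDCs (SD, n = 3, log2 fold change 6.22, edgeR adjusted p = 0.0127) and from 9.52 ± 4.97 to 721.5 ± 220.6 CPM in CD18 CD11c cKO BMDCs (6.20, adjusted p = 0.0115). Isg15, a ubiquitin-like modifier, rose from 9.81 ± 6.97 to 518.6 ± 61.7 CPM in CD18 fl/fl BMDCs, and Irf7, which amplifies interferon production, rose from 6.71 ± 3.24 to 466.6 ± 65.6 CPM in CD18 CD11c cKO BMDCs. Irf9, the DNA-binding partner of Stat2, was called with the block, with log2 fold changes of 1.33 and 1.16 (edgeR adjusted p = 0.0167 and 0.00576), and without it in neither genotype. It was 1 of 12 partner genes (receptor adaptors, coactivators and chaperones included), of which 0 were called without the block, 2 higher with it in CD18 fl/fl BMDCs (Irf9 and Nmi), and the same 2 higher and Cdc37 lower in CD18 CD11c cKO BMDCs. Without the block, 3 and 1 partners had an unadjusted p under 0.05.

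Of 27 ligands of JAK-coupled receptors listed, 13 passed the filter and were tested in each genotype. Of these, 2 were called higher in CD18 fl/fl and 5 in CD18 CD11c cKO BMDCs, and 6 and 10 with the block, with none lower in either fit. Some ligands passed the filter only through the libraries with LPS, so they could be called higher but not lower. Among them were Ifnb1 (0 CPM) and Il12a (0.20 ± 0.21 CPM without LPS) in CD18 CD11c cKO BMDCs, both called higher. Il6 rose from 5.17 ± 5.20 to 342.4 ± 35.3 CPM in CD18 fl/fl and from 6.22 ± 0.44 to 564.3 ± 222.9 CPM in CD18 CD11c cKO BMDCs. Ebi3, the shared chain of IL-27 and IL-35, rose from 18.8 ± 0.89 to 87.2 ± 19.8 CPM in CD18 fl/fl BMDCs (SD, n = 3). Il12b, the p40 chain of IL-12 and IL-23, was called in CD18 CD11c cKO BMDCs (132.1 ± 106.1 to 3852 ± 394.7 CPM), and with the block in CD18 fl/fl BMDCs as well (116.5 ± 109.6 to 4474 ± 1331 CPM). The interferon gene Ifnb1, called in CD18 CD11c cKO BMDCs, had no read in the untreated libraries and was at 4.17 ± 3.99 CPM with LPS.

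None of the receptor genes (31 tested in CD18 fl/fl and 33 in CD18 CD11c cKO BMDCs) was called without the block. An unadjusted p under 0.05 was found for 11 and 9 of them, and for 3034 of 12744 and 2685 of 12687 of all genes (edgeR). With the block, 5 were higher and 3 lower in CD18 fl/fl BMDCs, and in CD18 CD11c cKO BMDCs the numbers were 9 and 4. Il15ra, which presents IL-15 to other cells, was called higher with the block in both genotypes (log2 fold changes 2.42 and 1.74), as was the IL-23 receptor gene Il23r (3.34 and 2.53), while Il6ra (-2.28 and -3.12) and Lifr (-4.14 and -3.27) were called lower. Among 19 inhibitors, Usp18, which restrains the interferon receptor, rose in both genotypes (40.3 ± 24.7 to 459.3 ± 89.6 CPM and 51.5 ± 29.4 to 415.0 ± 51.4 CPM). It was the only inhibitor called without the block, with which 2 were higher in CD18 fl/fl BMDCs (Usp18 and Ptpn2). In CD18 CD11c cKO BMDCs, the block gave 4 higher inhibitors, Socs1 among them (1.11, edgeR adjusted p = 0.0221), and 1 lower, Socs6.

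Genes listed as targets of other STATs moved in both directions with LPS, and the shares over all genes are those given above. The lists share some genes, such as Il4ra in those of Stat3 and Stat6. Of 15 targets of Stat3, 3 were called higher in each genotype and none lower (4 higher and 2 lower, and 7 and 2, with the block). The acute phase gene Saa3 had the largest change among them, at 5929 ± 2488 CPM with and 93.9 ± 22.8 CPM without LPS in CD18 fl/fl BMDCs. Of 14 targets of Stat6 tested in CD18 fl/fl and 15 in CD18 CD11c cKO BMDCs, 2 were called lower in each and none higher (2 higher and 5 lower, and 2 and 7, with the block), with median log2 fold changes of -1.37 and -1.80. The lectin gene Cd209a fell from 42.6 ± 16.8 to 0.21 ± 0.25 CPM in CD18 fl/fl BMDCs, and the mannose receptor gene Mrc1 from 19.2 ± 5.28 to 0.69 ± 0.38 CPM in CD18 CD11c cKO BMDCs. Summed macrophage markers were also lower with LPS, between 470 and 1090 CPM against 1670 to 2250 CPM without. By gene, 3 of 8 were higher and 5 lower in CD18 fl/fl BMDCs, and 2 and 6 in CD18 CD11c cKO BMDCs, without the block. The part of macrophages in the fall of Mrc1 was not tested. Of 13 targets of Stat5, 0 were called in either genotype without the block (3 and 0 had an unadjusted p under 0.05), and 2 and 4 were higher with it, Il2ra, the IL-2 receptor α chain, among both (1.63 and 1.25). Of 7 targets of Stat4, 1 was higher and 2 lower in CD18 fl/fl, against 1 and 1 in CD18 CD11c cKO BMDCs (3 higher and 3 lower in each with the block). Gadd45g, a stress-response gene, rose (2.27 and 2.18, edgeR adjusted p = 0.0388 and 0.045), and Il18rap, an IL-18 receptor chain, fell by 2.83 and 2.72 on the log2 scale.

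Between the genotypes, no member was called without the block in either state. Among the genes tested, 0% were called (0 of 12876 without LPS, 0 of 12441 with LPS), while 2159 and 1212 genes had an unadjusted p under 0.05 and DESeq2 called 509 and 153 genes, none of them a member. Without LPS, 3 members had an unadjusted p under 0.05 (Jak1, Stat6 and Tyk2), and with LPS 1 (Stat6). With the block, 5 members were called lower in untreated CD18 CD11c cKO than in CD18 fl/fl BMDCs (Jak1, Stat3, Stat4, Stat5b and Stat6), against a background of 8.16% of genes lower and 12.1% higher, and with LPS 1 was lower (Stat6), against 3.16% lower and 6.98% higher.

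Stat6 was at 71.1, 75.3 and 70.0 CPM in untreated CD18 CD11c cKO BMDCs, below all CD18 fl/fl libraries (89.4 to 129.4 CPM). With LPS, it was at 86.0, 82.7 and 96.3 CPM, again below all CD18 fl/fl libraries (129.2 to 131.2 CPM). The log2 fold change was -0.60 ± 0.21 without LPS (edgeR adjusted p = 0.241) and -0.59 ± 0.21 with LPS (adjusted p = 0.451), and -0.58 ± 0.15 (adjusted p = 0.0377) and -0.59 ± 0.14 (adjusted p = 0.0444) with the block. An exact permutation test over the libraries gave p = 0.1 in each state (two-sided), the smallest that 3 against 3 libraries allow.

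Jak1 was at 66.5, 78.2 and 63.8 CPM in untreated CD18 CD11c cKO BMDCs against 92.9 to 123.5 CPM in CD18 fl/fl BMDCs, and at 62.6, 61.0 and 69.1 CPM against 78.9 to 88.4 CPM with LPS. The groups overlapped in neither state. The log2 fold change without LPS was -0.60 ± 0.21 (edgeR adjusted p = 0.227) and with the block -0.60 ± 0.14 (adjusted p = 0.0245). With LPS, it was -0.40 ± 0.14 with the block (adjusted p = 0.118). Tyk2 was also lower in all 3 untreated CD18 CD11c cKO libraries (33.7 to 37.5 CPM) than in the CD18 fl/fl ones (44.2 to 57.0 CPM), at -0.45 ± 0.16 with the block (adjusted p = 0.0793), and its groups overlapped with LPS.

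Stat3 (-0.53 ± 0.14, adjusted p = 0.0355), Stat4 (-0.53 ± 0.14, adjusted p = 0.0358) and Stat5b (-0.53 ± 0.14, adjusted p = 0.040, edgeR with the block) were lower in 3 of 3 pairs without LPS, but their groups overlapped, since replicate 3 differed from the others in both genotypes. Jak2, Stat2 and Stat5a moved in no common direction over the pairs without LPS, with log2 fold changes of -0.06 ± 0.18, -0.20 ± 0.21 and -0.13 ± 0.21 with the block. With LPS, Stat2 differed by 0.00 ± 0.15 between the genotypes.

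Which members were called between the genotypes depended on whether an offset for exon length was used. The exons of the members added up to between 3148 (Stat4) and 6228 bases (Stat3), at percentiles between 49.5 and 85.5 among 13752 genes. With an offset for exon length together with the block, 0 of 9 members were called in either state (3 and 1 had an unadjusted p under 0.05, edgeR), where 1608 and 933 of all genes still were. Stat6 was then at -0.45 ± 0.14 without LPS (adjusted p = 0.0765) and -0.46 ± 0.15 with LPS (adjusted p = 0.107), Stat4 at -0.49 ± 0.14 (adjusted p = 0.0554) and Jak1 at -0.39 ± 0.13 without LPS (adjusted p = 0.0915). Smaller values were left for Stat3 (-0.25 ± 0.15, adjusted p = 0.285), Stat5b (-0.29 ± 0.14, adjusted p = 0.203) and Tyk2 (-0.21 ± 0.14, adjusted p = 0.358, edgeR) without LPS, and Jak2 turned to 0.15 and 0.07. On replicates 1 and 2 only, Stat6 alone was called without LPS (-0.71, adjusted p = 0.0425, edgeR) and no member with LPS. Of all genes, 349 of 13068 were called lower on these replicates without LPS and 121 of 12390 with LPS. Scaling to library size alone moved the median of all genes to -0.437 and -0.366, and Jak1 to -0.99 and -0.65 with it. Summed dendritic cell markers were between 21400 and 36700 CPM in untreated CD18 CD11c cKO and between 16200 and 25300 CPM in untreated CD18 fl/fl libraries. By gene, 6 of these 11 markers were higher and 5 lower with the block. H2-Ab1 was called higher (0.86) and Flt3 lower (-1.34), where 12.1% of all genes were called higher and 8.16% lower. Summed macrophage markers with LPS were between 470 and 814 against 915 to 1090 CPM, with 2 of 8 higher and 6 lower with the block. The part of cell make-up and of transcript length in the genotype differences was not tested.

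**Figure D3:**
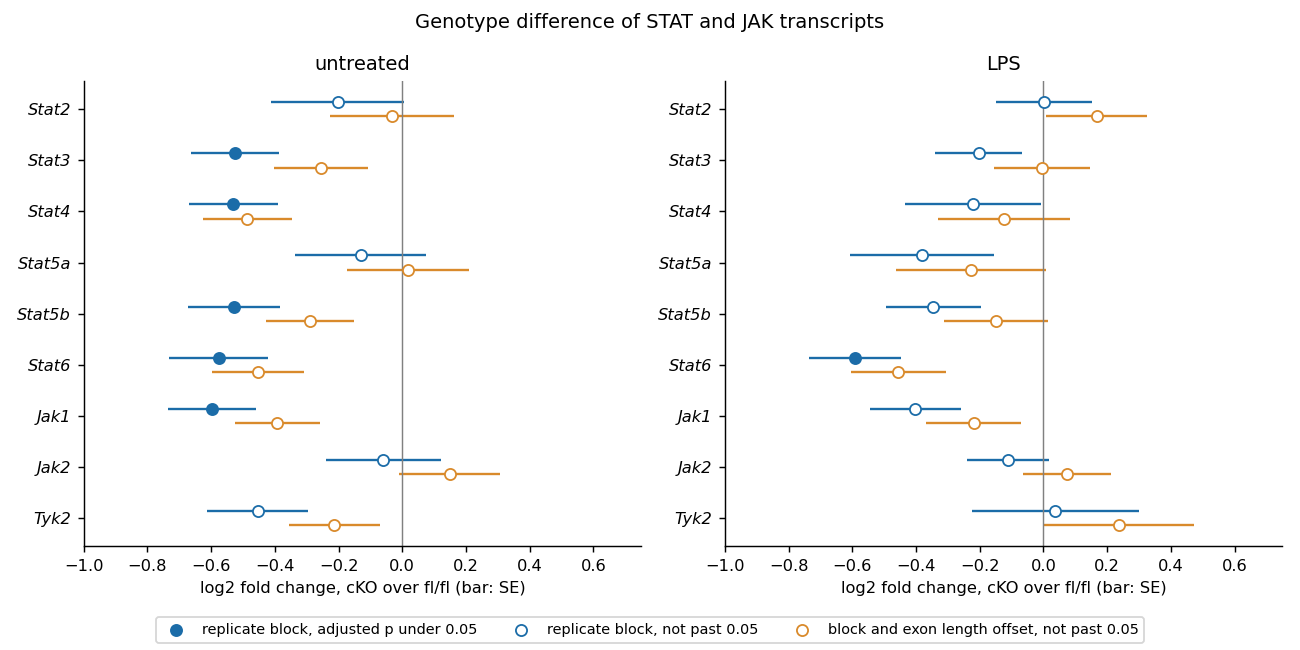
Log2 fold change of each member in CD18 CD11c cKO over CD18 fl/fl BMDCs (bars, SE), untreated (left) and with LPS (right), with the replicate block and with the block and an exon length offset, filled for adjusted p under 0.05. With the block, 5 members are filled without LPS and 1 with LPS, all to the left of 0, and with the offset in addition none is filled.

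Pathway genes were counted between the genotypes in the fits without and with the block, and none was called without it. With the block, the shares over all genes were 12.1% higher and 8.16% lower without LPS, and 6.98% and 3.16% with LPS, and several of the counts that follow are near them. Of 33 receptor genes tested without LPS, none was higher and 8 were lower in CD18 CD11c cKO BMDCs (0 called and 3 with an unadjusted p under 0.05 without the block, edgeR). Csf3r, the G-CSF receptor gene of myeloid cells, was at 1.85 ± 1.80 against 8.96 ± 6.27 CPM (-2.44, adjusted p = 0.00472), and Il6st, which encodes the signal chain gp130, at 47.4 ± 13.3 against 90.1 ± 34.8 CPM (-0.83, adjusted p = 0.0159). Summed neutrophil markers, which Csf3r accompanies in the myeloid lineage, lay between 108 and 441 CPM in these CD18 CD11c cKO libraries and between 156 and 1700 CPM in the CD18 fl/fl ones, and their part in the difference was not tested. With LPS, 2 of 30 receptors were lower, Csf3r and the interferon receptor gene Ifnar2 (-0.66, adjusted p = 0.0372).

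Of 15 Stat3 targets without LPS, 1 was higher and 5 were lower with the block, among them Socs3, which limits gp130 signals (-0.87, edgeR adjusted p = 0.0165), and Cebpd, a transcription factor gene of myeloid cells (-1.03, adjusted p = 0.0162). Of 16 Stat6 targets, 2 were higher and 1 lower. Ccl17, a chemokine gene, was at 993.2 ± 1230 against 54.6 ± 44.7 CPM (3.71, adjusted p = 0.00298), and Il4ra, the receptor chain that Stat6 docks on, at 142.4 ± 13.5 against 224.6 ± 38.4 CPM (-0.59, adjusted p = 0.0486). Of 23 ISGF3 targets, 2 were higher and 0 lower without LPS (Mx1 and Oas1a) and 0 higher and 1 lower with LPS (Oasl2, -0.65, adjusted p = 0.0392). Of the 19 inhibitors, 1 was higher and 1 lower without LPS (Ptpn2 and Socs3) and 1 lower with LPS (Pias1).
The other lists held few calls with the block. Without LPS, they were 1 of 10 ligands (Osm, lower), 1 of 12 partners (Ep300, lower), 2 of 13 Stat5 targets (Ccnd3 and Osm, both lower) and 2 of 7 Stat4 targets (Il18r1 higher, Furin lower). With LPS, they were 2 of 15 ligands (Lif and Ebi3, both lower), 0 of 12 partners, 1 of 14 Stat3 targets (Hif1a, lower), 0 of 13 Stat5 targets, 1 of 12 Stat6 targets (Ccl17, higher) and 1 of 7 Stat4 targets (Furin, lower).

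Whether the response to LPS differed between the genotypes was tested by the interaction term on all 12 libraries. No member was called, and 0% of 13752 genes were called without the block and 0% with it (97 and 272 genes had an unadjusted p under 0.05, none of them a member, and DESeq2 called 1 gene). The largest interaction among the members was that of Tyk2, whose LPS response on the log2 scale was higher by 0.51 ± 0.55 in CD18 CD11c cKO BMDCs and by 0.57 ± 0.46 with the block. For Stat2, the corresponding values were 0.23 ± 0.43 and 0.26 ± 0.35, and for Stat6 0.09 ± 0.27 and 0.08 ± 0.24. A member that passed the threshold in one genotype and not in the other was therefore not shown to respond differently.

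The make-up of each family was compared within libraries, as shares of the summed CPM per kb of its members. Jak2 made up 72.2, 68.0 and 62.3% of the 3 kinases in untreated CD18 fl/fl BMDCs and 82.5, 79.4 and 80.4% with LPS, and 79.9, 70.1 and 73.1% and then 84.5, 79.6 and 83.4% in CD18 CD11c cKO BMDCs. The groups overlapped in CD18 CD11c cKO and not in CD18 fl/fl BMDCs. Within each library, Jak2 was 2.36-fold to 5.84-fold above Jak1 per length without LPS, and 4.61-fold to 8.18-fold above it with LPS. Stat2 made up 5.82 ± 3.15% of the 6 STATs without and 18.2 ± 2.23% with LPS in CD18 fl/fl BMDCs, and 7.23 ± 5.17% and 22.4 ± 2.55% in CD18 CD11c cKO BMDCs (SD, n = 3). Stat4 held between 41.3 and 49.5% in replicates 1 and 2 of the 4 groups and between 9.55 and 18.6% in replicate 3, where Stat5a held up to 32.0%.

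**Figure D4:**
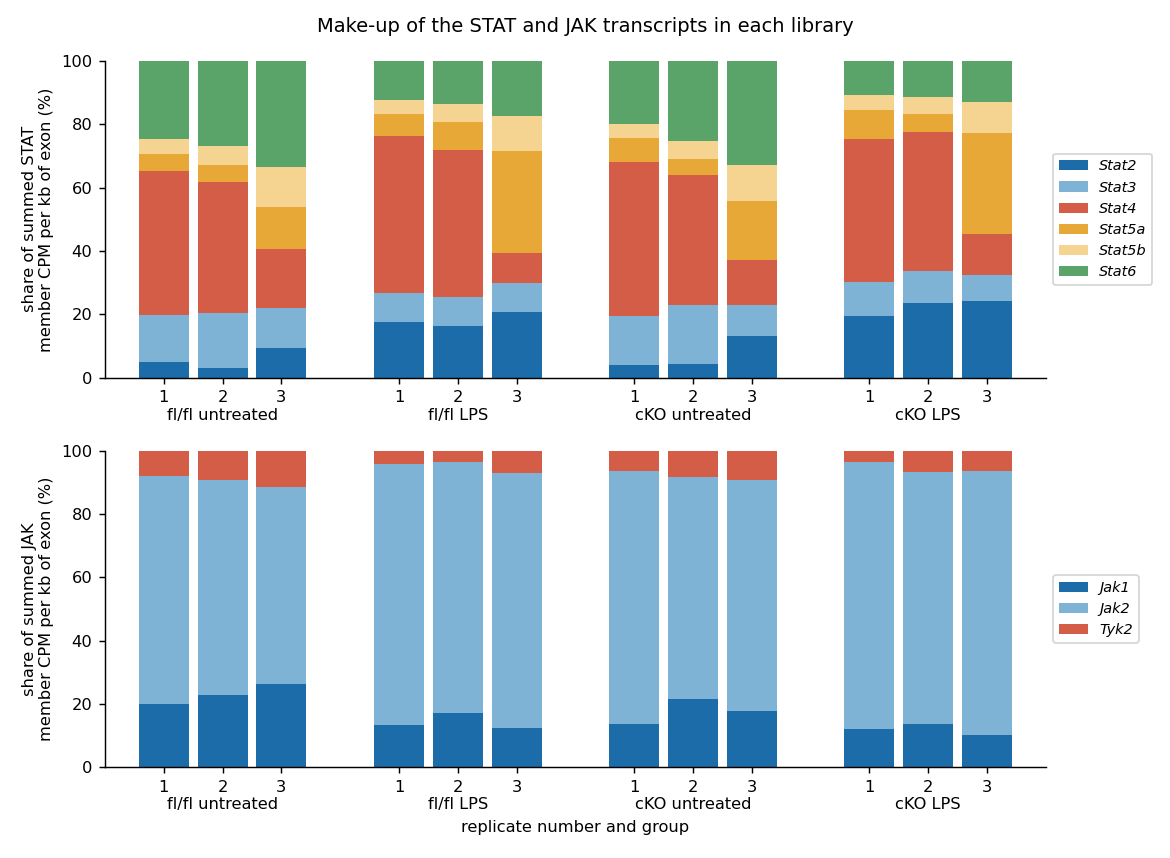
Shares (percent, stacked to 100) of the summed CPM per kb of exon of the 6 STAT members (top) and of the 3 JAK members (bottom) in each of the 12 libraries, by group and replicate number. Jak2 takes between 62.3 and 84.5% of the kinases in every library, and the Stat4 share is between 9.55 and 18.6% in replicate 3 against 41.3 to 49.5% in replicates 1 and 2.

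Stat5a and Stat5b encode nearly identical proteins, and reads can be shared between them. Of the 59-base windows of the longest transcript in GENCODE, 11.06% of those of Stat5a occurred in Stat5b and 9.47% of those of Stat5b in Stat5a, with a longest shared run of 324 bases inside the reading frame. Between 93.0 and 97.9% of Stat5a reads and between 94.5 and 98.8% of Stat5b reads mapped to 1 place, and no call changed when only these were counted. The ratio of Stat5a to Stat5b per length was 1.15, 0.883 and 1.03 in untreated CD18 fl/fl BMDCs and 1.52, 1.55 and 2.92 with LPS. In CD18 CD11c cKO BMDCs, it was 1.69, 0.874 and 1.61 without and 1.85, 1.05 and 3.23 with LPS. It was higher with LPS in 6 of 6 pairs, and the groups overlapped in CD18 CD11c cKO BMDCs alone. Whether reads were counted by strand is not given in the sources used here, so that reads from sequence common to Stat5a and Stat3 cannot be told apart by strand. The genes overlap by 72 bases in the positions used here. In the GENCODE transcripts, the longest shared run was 142 bases, with 1.79% of the Stat5a and 1.31% of the Stat3 windows shared.

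The genes most like each member were those with the smallest root mean square difference in log2 CPM over the 12 libraries, after each gene was centred on its mean. For Stat2, they were Acsl1 (0.319), the class I MHC gene H2-Q5 (0.32) and Layn (0.424), where Stat2 itself varied by 1.595 around its mean. For Stat4, they were Dusp1 (0.258), Mreg (0.294) and Tapbpl (0.298), for Stat5a Ehd1 (0.435), Plk2 (0.452) and Nfkbiz (0.466), and those near Stat5b included Resf1 (0.187) and the phosphatase gene Ptpn1 (0.202). Stat3 was closest to Aftph (0.177), Ikbkb (0.186) and Atmin (0.194), and Stat6 to Ythdc1 (0.12), Fbxo38 (0.12) and Tmbim6 (0.136). Jak1 was closest to Yipf3 (0.083), Naa60 (0.115) and Supt5 (0.124), Jak2 to Fnbp1 (0.185), Arid5a (0.219) and Depdc7 (0.224), and Tyk2 to Dock8 (0.151), Fam98b (0.179) and Rbm6 (0.213). Among the members themselves, Stat6 and Jak1 were the nearest pair (0.268), and Stat2 and Tyk2 the farthest (1.847). These distances describe 12 libraries that share the LPS and replicate patterns given above.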

How the data were processed

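RNA-seq of 12 BMDC libraries was re-analysed. According to the methods of the study, the authors trimmed the reads, aligned them to GRCm39 and obtained gene totals, all in CLC Genomics Workbench at its defaults. The labels name GRCm38 as the build, but the gene positions in the tables matched GRCm39. The release of the annotation is not given in the sources used here. The authors deposited raw counts, as total gene reads and unique gene reads with 1 table per library, of which total gene reads were used. The study describes overnight LPS where the labels give 24 h. No molecular identifiers marked the PCR copies, so limits from counts cover counting error only.

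Labels gave the condition and number of every library. Counts were tested by the quasi-likelihood test of edgeR 4.0.16 in R 4.3.3 after TMM scaling and filterByExpr at a minimum count of 10, with p-values adjusted by Benjamini-Hochberg across the whole table and a threshold of 0.05. Each comparison used its 6 libraries, and the interaction used all 12. Dividing a log2 fold change by the root of its F value gave the SE. Levels are CPM scaled by TMM on 12 libraries, per kb of exon where genes are compared. Replicate numbers were taken to pair libraries, since same-numbered libraries deviated together from their group means in every pair of each comparison (r between 0.265 and 0.716 over 13752 genes). The study does not state whether they were cultured together. Because replicate 3 stood apart in every group, it shifts each group mean away from replicates 1 and 2. The r values therefore cannot show that replicates 1 and 2 are each paired by number. The procedure was tested on simulated counts. The members and the lists of pathway genes, targets and markers were chosen with earlier results of these data known. Beside the members, genes were named by rule, as Itgb2, the 3 genes most like each member (of which 1 is not reported here) and, per list and comparison, up to 4 of the genes called with the largest change or up to 2 with the smallest p.

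Alternatives were the replicate block, DESeq2 1.42.0, edgeR on 12 libraries, RLE size factors, library size scaling, no filter, unique gene reads, an exon length offset (lowess, span 0.3) with and without the block, and each library left out in turn. Replicates 1 and 2 only, and 12 libraries with the block, were added after seeing the data. Promoters came from RefSeq and were placed by exact match in GRCm39. Protein sequences were not used here.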

Additional observations from a re-analysis of the deposited data

How the results depend on the processing

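Among the log2 fold changes of members recomputed under alternatives, 684 kept their direction and their side of the threshold, 48 passed it only under the alternative, 8 no longer passed it and 61 changed sign. The cause was not tested. The replicate block raised the members called from 0 to 5 (genotype, untreated), from 0 to 1 (genotype, LPS) and from 1 to 4 in both LPS comparisons, and changed no call of the interaction. It moved all genes called from 0 to 2606, 0 to 1262, 496 to 1627 and 506 to 2560. With the block and an exon length offset, the members called were 0, 0, 4 and 4 (1608, 933, 1738 and 2569 genes). With the offset alone, they were 0, 0, 3 and 2 (576 and 523 genes with LPS). DESeq2 called 3 members in each LPS comparison (1795 and 1534 genes). No filter called 2 in CD18 fl/fl BMDCs (691 genes), and edgeR on 12 libraries 2 in CD18 CD11c cKO BMDCs (1068 and 983 genes). Of the alternatives chosen after seeing the data, replicates 1 and 2 only called 1 member (genotype, untreated) and 6 and 3 (LPS). All genes called there were 1383 of 13068, 6140 of 12924 and 2049 of 12872. With 12 libraries and the block, 3, 4 and 5 members were called in these comparisons, beside 1115, 3365 and 3016 of 13752 genes. With 1 library left out, 0 to 4 members were called with LPS in CD18 fl/fl and 0 to 1 in CD18 CD11c cKO BMDCs. The 4 were called without LPS replicate 3 of CD18 fl/fl, beside 3268 of 13206 genes. Library size scaling split the genes called with LPS into 143 higher and 304 lower, and 186 and 300, against 263 and 233, and 283 and 223.

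Signs changed for small values and, with 1 library left out, for larger ones as well. Between genotypes without LPS, the exon length offset gave Stat5a 0.10 (0.02 with the block) and Jak2 0.13 (0.15). With LPS, Jak2 was then 0.09 (0.07) and Tyk2 0.21 (0.24), and Tyk2 was 0.04 with the block, 0.01 by DESeq2, 0.02 with RLE size factors, 0.21 on replicates 1 and 2 only and 0.03 on 12 libraries with the block. Stat2 was -0.25 with library size scaling, -0.02 with no filter and -0.10 on replicates 1 and 2 only. The LPS response of Stat6 in CD18 fl/fl BMDCs was -0.10 with library size scaling. The interaction was -0.04 for Stat4 on replicates 1 and 2 only, -0.02 for Stat6 (-0.02 with the block) and -0.07 for Jak2 (-0.06) with the offset. With 1 library left out, values between genotypes without LPS ranged from -0.57 to 0.03 (Stat2), -0.40 to 0.24 (Stat5a) and -0.33 to 0.09 (Jak2), and with LPS from -0.38 to 0.54 (Tyk2), -0.07 to 0.10 (Stat2), -1.27 to 0.54 (Stat5a) and -0.32 to 0.05 (Jak2). The LPS response of Tyk2 in CD18 CD11c cKO BMDCs ranged from -0.45 to 0.21, and interactions from -0.49 to 0.62 (Stat4), -0.12 to 0.15 (Stat6), -0.08 to 0.51 (Stat5b), -1.13 to 0.57 (Stat5a) and -0.21 to 0.28 (Jak2). Every member had at least 458 reads in each library.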
